A study of Mus musculus with 12 samples.

Results

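Germline and testis-restricted genes were followed in TM3 cells, a mouse line of Leydig cells that was started from a young Balb/c animal, after treatment with methoxyacetic acid (MAA). MAA is formed in the body from a glycol ether solvent, and germ cells of the testis are among its known targets. The set had 10 members: the bromodomain gene Brdt, the chromatin genes Morc1 and Dnmt3l, the sperm cytochrome c gene Cyct, the protamine genes Prm1 and Prm2, the X-linked homeobox genes Esx1 and Rhox5, and the RNA helicase and RNA-binding protein genes Ddx4 and Dazl. Several of them had been picked because their MAA/control ratios moved in these same arrays, so those ratios are only described here. Calls given for them mark ratios past the thresholds and are not evidence for the members. The scanner files name a probe by its accession, and the members were found by matching that accession to a RefSeq gene table. All 10 genes were found, on 13 of the 41174 probes of the array, with 3 probes for Prm1 and 2 for Dazl.

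TM3 cells received MAA at 1 of 2 doses, 5 mM or 1 mM, and were collected after 3, 8 or 24 h beside untreated controls of the same time. Each of the 6 conditions was measured on 2 Agilent 2-colour arrays, and each array compared a pool of 3 MAA-treated cultures with control RNA of that time. The dyes were swapped between the replicates, with treated RNA labelled green on the first and red on the second, and the second array of a condition used another pool of treated cultures. All samples came from a single established line. Of 9 Leydig cell marker genes, Star, Insl3 and Cyp17a1 were well above background in all 12 control channels, while Cyp11a1, Hsd3b1, Hsd3b6 and Lhcgr were not above it in any.

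Germline genes are kept silent in most cells of the body. In mice, DNA methylation of CpG-rich promoters and a Polycomb-type repressor that holds the DNA-binding proteins MGA, MAX and E2F6 are known to keep many of them off, and histone deacetylases take part. Brdt is a testis-specific relative of Brd2 and Brd3 that binds acetylated histones in spermatocytes and spermatids. Morc1 and Dnmt3l act in male germ cells in the silencing of transposable elements, Dnmt3l as a cofactor without catalytic activity of the DNA methyltransferases Dnmt3a and Dnmt3b. Cyct encodes the cytochrome c of sperm mitochondria. Prm1 and Prm2 encode the protamines that replace histones in the sperm head. Esx1 is a homeobox gene of germ cells and placenta, and Rhox5 is the founding member of a reproductive homeobox cluster and is a gene of Sertoli cells as well. Ddx4 is a defining gene of the germ cell lineage, and Dazl binds RNA in germ cells.

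Across the whole series, 62.1% to 69.2% of probes were well above background in the MAA channel of an array and 61.5% to 70.3% in the control channel, as the scanner software judged it. Of the 10 germ cell marker genes, Ddx4, Tnp1 and Prm1 (by 1 of its probes) were above background in all 12 control channels, and Pgk2, Acrv1 and Ldhc in none. The summed signal of the germ cell markers in the 5 mM arrays at 24 h was 724 to 861 in the control channels and 523 to 585 in the MAA channels, after the channels were scaled to each other. Ddx4 was lower with MAA there, while of the 13 probes of the list 2 were called higher and 0 lower. Of 4 macrophage markers, Lyz2 was above background in all 12 control channels by both probes and Ptprc, Itgam and Adgre1 in none, and of 4 endothelial markers, Tek was above it in 8 and Kdr, Pecam1 and Cdh5 in none. At 5 mM for 24 h, 1 of 8 macrophage probes, 1 of 5 endothelial probes and 2 of 6 peritubular myoid probes were called, all higher. Adgre1 probe A_51_P251768 had a log2 ratio of 2.85 there and was above background in 4 of 12 MAA channels over all arrays. Its second probe was above background in none. Fewer cells with a transcript and less transcript per cell cannot be told apart in these bulk samples.

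At 5 mM MAA for 24 h, 4 of the 13 member probes passed the thresholds used for a call, all higher with MAA: Morc1, Cyct, Esx1 and Rhox5. A call was an unadjusted limma p under 0.005 together with a fold threshold, which was 2-fold on 5 mM arrays and lower, 1.5-fold, on 1 mM arrays. Of all probes, 5.62% were called in that condition, 3.85% higher and 1.77% lower. At 5 mM for 3 h and for 8 h, 2 member probes were called each time, Cyct higher and Dnmt3l lower, against 3.76% of all probes at 3 h (2.02% higher, 1.74% lower) and 5.55% at 8 h (3.06% higher, 2.49% lower). At 1 mM, Cyct was called at 3 h, Cyct and Morc1 at 8 h and Morc1 at 24 h, all higher. The shares of all probes were 1.95% at 3 h (1.32% higher, 0.627% lower), 2.37% at 8 h (1.72% higher, 0.656% lower) and 4.68% at 24 h (3.26% higher, 1.41% lower). Since the members were chosen with these ratios known, nothing is read from those shares. In the 5 mM arrays at 24 h, 9 of the 13 probes had at least 1 channel well above background on both arrays. In each of the other conditions, 7 did. The background was also corrected with normexp, which added an offset of 50 to every signal, followed by loess. Then 0, 1 and 1 member probes were called at 5 mM for 3, 8 and 24 h. At 1 mM, 0 were called at each time. The log2 ratio of Esx1 at 5 mM for 24 h was then 0.27, that of Morc1 0.63 and that of Rhox5 1.19.

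**Figure D1:**
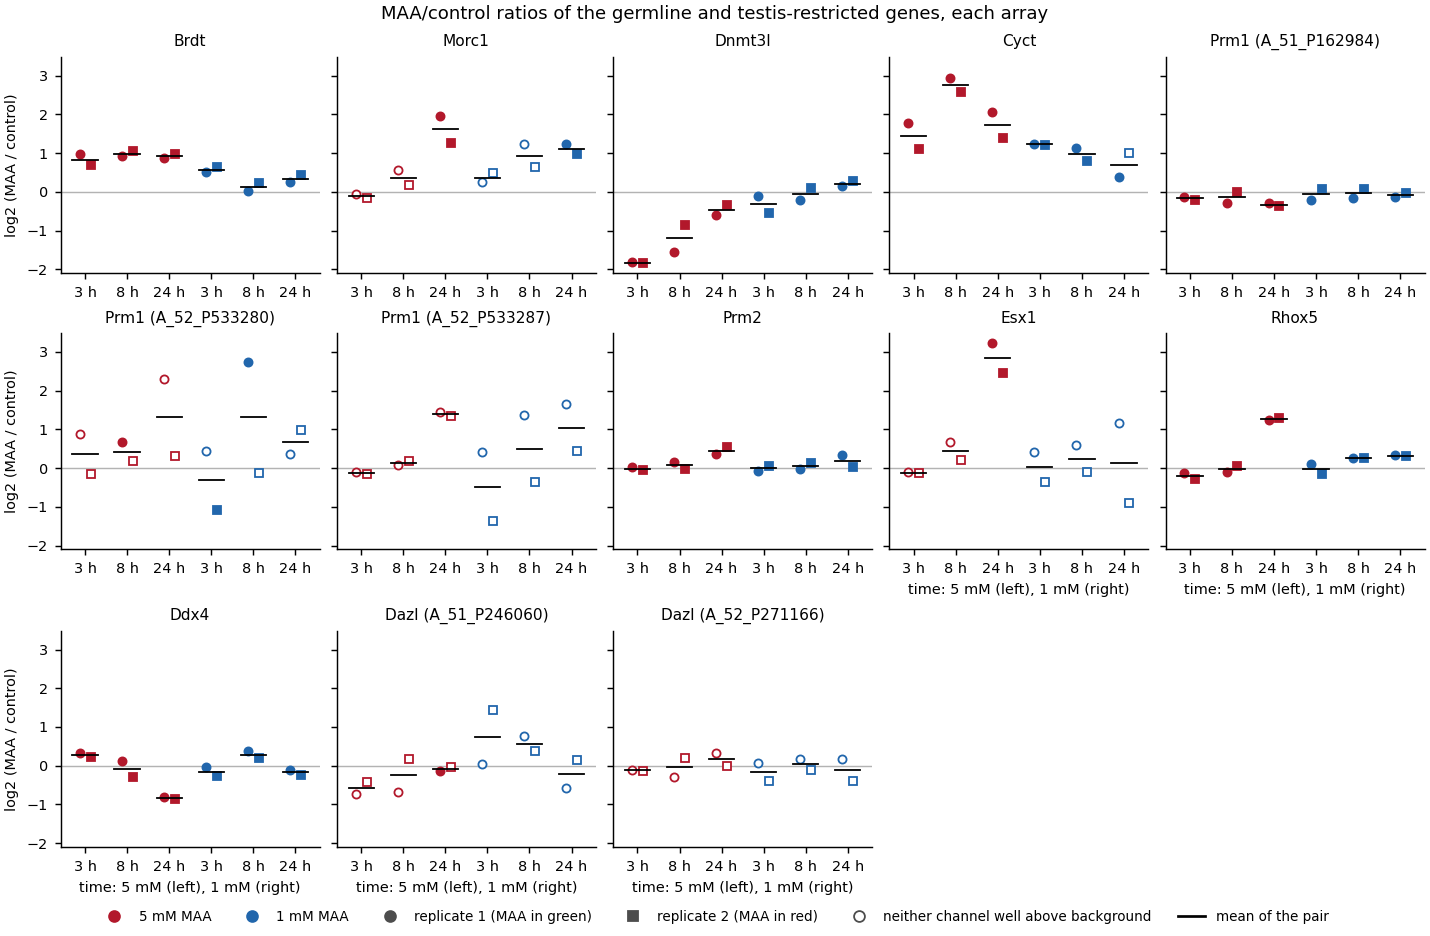
Log2 MAA/control ratio of each member probe on each array, with time on the horizontal axis and 5 mM (red) left of 1 mM (blue). Circles are replicate 1, squares replicate 2, bars the mean of the pair, and open symbols spots with neither channel well above background. Cyct stood highest at 5 mM for 8 h, Dnmt3l lowest at 5 mM for 3 h, and Esx1 and Rhox5 left 0 at 5 mM for 24 h.

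Promoter sequences are shown for Cyct, Esx1 and Rhox5, called higher with 5 mM MAA at 24 h and present in the RefSeq promoter table. They are also shown for Dnmt3l, lower at 3 h, and for Brdt and Ddx4, higher and lower at 24 h without a call. Each is the 250 bases before the annotated start on GRCm38.p6, read 5′ to 3′ on the strand of the gene. The table had entries for 9 of the 10 members, and Morc1 was not among them. Of the 3 Dnmt3l starts the second is shown because it alone had a match to any motif searched. Capitals mark matches, on either strand, to an E-box (CACGTG), an E2F-type site (GCGGGA), a GC box (GGGCGG), a CRE (TGACGTCA) or a TATA box (TATAAA).
Brdt, chr5:107330944-107331193, plus strand: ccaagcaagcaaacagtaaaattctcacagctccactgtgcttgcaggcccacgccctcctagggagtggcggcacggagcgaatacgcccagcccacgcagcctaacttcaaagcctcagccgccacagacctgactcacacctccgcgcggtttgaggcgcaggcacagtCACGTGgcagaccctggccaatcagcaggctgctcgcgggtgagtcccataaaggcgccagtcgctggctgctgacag
Cyct, chr2:76360454-76360703, minus strand: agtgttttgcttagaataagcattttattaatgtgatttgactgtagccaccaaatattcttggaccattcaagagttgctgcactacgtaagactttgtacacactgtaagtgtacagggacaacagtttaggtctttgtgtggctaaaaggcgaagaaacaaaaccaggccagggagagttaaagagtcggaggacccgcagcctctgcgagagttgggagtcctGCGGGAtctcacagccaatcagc
Esx1, chrX:137120327-137120576, minus strand: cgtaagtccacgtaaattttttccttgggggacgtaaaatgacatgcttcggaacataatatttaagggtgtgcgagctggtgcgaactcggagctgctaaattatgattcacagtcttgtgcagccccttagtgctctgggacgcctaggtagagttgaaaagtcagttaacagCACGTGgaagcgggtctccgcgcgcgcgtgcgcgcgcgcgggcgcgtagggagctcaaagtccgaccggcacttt
Rhox5, chrX:37754358-37754607, plus strand: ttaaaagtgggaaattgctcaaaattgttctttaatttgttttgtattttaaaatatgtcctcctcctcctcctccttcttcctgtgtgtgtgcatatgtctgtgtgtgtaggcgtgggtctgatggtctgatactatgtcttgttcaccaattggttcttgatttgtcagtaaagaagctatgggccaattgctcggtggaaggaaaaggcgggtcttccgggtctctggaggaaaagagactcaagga
Dnmt3l, second start, chr10:78049592-78049841, plus strand: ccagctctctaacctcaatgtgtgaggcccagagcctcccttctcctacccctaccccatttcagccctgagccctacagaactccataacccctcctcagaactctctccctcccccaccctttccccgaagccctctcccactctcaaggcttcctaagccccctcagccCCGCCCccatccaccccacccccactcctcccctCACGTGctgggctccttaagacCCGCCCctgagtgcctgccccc
Ddx4, chr13:112652311-112652560, minus strand: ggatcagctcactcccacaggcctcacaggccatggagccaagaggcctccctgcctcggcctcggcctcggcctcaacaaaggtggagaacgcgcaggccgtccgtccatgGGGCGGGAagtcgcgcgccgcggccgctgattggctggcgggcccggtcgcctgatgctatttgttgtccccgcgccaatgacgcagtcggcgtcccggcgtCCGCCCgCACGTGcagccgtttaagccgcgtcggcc

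The E-box letters were present before 4 of the 11 member starts, those of Brdt, Esx1, Ddx4 and the second start of Dnmt3l, and before 6.02% of the 32851 starts in the table. They lay 78 bases upstream in Brdt, 75 in Esx1, 44 in Dnmt3l and 29 in Ddx4. The E2F-type letters occurred before Cyct and Ddx4 and before 16.9% of all starts. In Ddx4 that match overlapped a GC box, whose letters were found before 32.7% of all starts. The CRE letters, found before 1.55% of all starts, were not in any member window, and the TATA letters, found before 12.4%, were only in that of Prm2. CG dinucleotides numbered 31 in Ddx4, 24 in Esx1, 20 in Dazl and 16 in Brdt, against a median of 6 over all starts. Cyct had 6, Rhox5 had 4, Prm2 had 2 and Prm1 had 0, and the Dnmt3l starts had 5, 4 and 3. The members called higher with 5 mM MAA at 24 h therefore included windows above the median (Esx1), at it (Cyct) and somewhat below it (Rhox5). Brdt, above the median, was higher there without reaching a call. These matches describe letters only, and no binding or methylation was measured.

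Brdt was expressed in untreated cells and was higher with MAA on all 12 arrays. At 5 mM for 8 h its processed signals were 786 and 702 in the MAA channels and 414 and 341 in the control channels. The log2 ratios of the 2 arrays were 0.97 and 0.70 at 3 h, 0.92 and 1.04 at 8 h, and 0.86 and 0.97 at 24 h. The mean ratios came to 1.78-fold, 1.98-fold and 1.89-fold, each just under the 2-fold threshold. At 1 mM the mean log2 ratios were 0.57 ± 0.10 at 3 h, 0.12 ± 0.14 at 8 h and 0.34 ± 0.12 at 24 h (SD, n = 2 arrays). The 5 mM ratios were thus all above the 1 mM ratios, and no array of either group overlapped the other. All 24 channels were well above background for Brdt.

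Morc1 was near background in every channel at 3 and 8 h and was detected in every channel at 24 h. In the 5 mM arrays at 24 h the MAA channels read 69.7 and 42.5 and the control channels 18.0 and 17.7, and in the 1 mM arrays the MAA channels read 33.6 and 27.3 and the control channels 14.4 and 14.0. The log2 ratios at 24 h were 1.95 and 1.27 at 5 mM, a mean of 3.05-fold, and 1.22 and 0.97 at 1 mM, a mean of 2.14-fold. The replicate 2 ratio at 5 mM lay only just above the replicate 1 ratio at 1 mM. Morc1 was also called at 1 mM for 8 h, where signals were between 2.05 and 6.17 with neither channel above background on either array, so no fold is given there.

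Dnmt3l was lower with 5 mM MAA, most so at 3 h. The MAA channels read 14.1 and 12.97 at 3 h against 49.7 and 46.6 in the control channels, and log2 ratios were -1.82 and -1.85, a mean of 3.56-fold lower. At 8 h the ratios were -1.55 and -0.85, a mean of 2.29-fold lower, and at 24 h they were -0.61 and -0.33. The control signals behind them were 86.1 and 63.4 at 8 h and 43.2 and 31.9 at 24 h, and in each pair of channels the MAA signal was the lower. At 1 mM, the mean log2 ratio was -0.33 ± 0.31 at 3 h, -0.05 ± 0.21 at 8 h and 0.21 ± 0.09 at 24 h (SD, n = 2 arrays). All control channels were above background, as were the MAA channels apart from replicate 1 at 5 mM for 3 h.

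Cyct, the sperm form of cytochrome c, was higher with MAA at each time and dose. At 5 mM for 8 h the MAA channels read 133 and 120.5 and the control channels 17.3 and 20.4, with log2 ratios of 2.94 and 2.56 and a mean of 6.74-fold. The control channel was above background on 1 of those 2 arrays. At 3 h and 24 h no 5 mM control channel was above background, and the MAA channels at 19.2 to 32.9 were at least 1.81-fold higher at 3 h and at least 2.66-fold higher at 24 h, a limit set by the lowest signal among probes called above background. Such limits, here and below, hold for the processed signals only. They rest on the smallest floor of each array, and a higher floor would give smaller folds. With normexp and loess the 5 mM log2 ratios of Cyct were 0.29 at 3 h and 0.36 at 24 h, smaller than those limits. At 1 mM the Cyct ratio of the processed signals was at least 1.34-fold at 3 h and was 1.97-fold at 8 h. At 24 h the log2 ratios of 0.39 and 1.01 did not reach a call. Probes for the somatic cytochrome c gene Cycs had log2 ratios between -0.16 and 0.29 on the 5 mM arrays at 24 h. At 5 mM for 8 h, mean log2 ratios of the 10 probes for widely expressed relatives, Cycs among them, were -0.34 to 0.40.

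Of the protamine genes, neither was called in any condition. The 3 Prm1 probes disagreed. Probe A_51_P162984 was above background in all 24 channels, with signals of 49.6 to 114, and its mean log2 ratio lay between -0.33 and -0.04. The others, A_52_P533280 and A_52_P533287, were above background in 3 and 0 of 24 channels, and at 1 mM for 8 h, for example, the first of them had log2 ratios of 2.74 and -0.12. Prm2 lay close to background with mean log2 ratios of -0.02 to 0.45. Its signals were between 6.24 and 25.4 on 11 arrays, but on replicate 2 of 5 mM at 8 h they were 249 in the MAA channel and 254 in the control channel. Both channels of that spot were bright alike, so its ratio of -0.03 did not stand apart.

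Both X-linked homeobox genes were higher with 5 mM MAA at 24 h and not at the earlier times. For Esx1, the MAA channels of the 24 h arrays read 21.0 and 16.3 and were the only channels of all 24 above background, against 2.25 and 2.96 in the control channels. The measured log2 ratios were 3.22 and 2.46. With the control set to the lowest signal called above background, the difference was at least 1.74-fold. Rhox5 was measured in all channels. Its MAA signals at 5 mM for 24 h were 834 and 836 and its control signals 351 and 338, log2 ratios of 1.25 and 1.31 and a mean of 2.42-fold. At 5 mM for 3 and 8 h the Rhox5 ratios were between -0.29 and 0.05, and at 1 mM between -0.15 and 0.33. Of the 9 Sertoli cell marker genes, which include Rhox5, 3 were called higher at 5 mM for 24 h, the others being Clu at a log2 ratio of 1.88 and Dhh at 3.998, the latter with 1 of 2 control channels above background there and 2 of 12 over all arrays. Clu, Rhox5, Sox9 and Wt1 were above background in all 12 control channels and Cldn11 in none. The summed signal of the list was 15970 to 16810 in the control channels and 27530 to 29270 in the MAA channels of that condition. Wt1 and Clu were by far the brightest, with control signals of 5586 to 13240 and 1281 to 5944 over all arrays. The sum therefore mostly reflects those genes, and Wt1 was not called there. Of the 11 probes of the list, 3 were called higher and 0 lower. The part of the other Sertoli markers in the Rhox5 result was not tested. The 5 other probes of the Rhox cluster, for Rhox2a, Rhox3a, Rhox6, Rhox9 and Rhox11, were not called in any condition, with mean log2 ratios of -0.76 to 0.17 at 5 mM for 24 h, and of them only Rhox2a was above background on both arrays.

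Ddx4 was above background in all channels and was lower with 5 mM MAA at 24 h, with signals of 403 and 461 in the MAA channels and 700 and 831 in the control channels and log2 ratios of -0.80 and -0.85. That mean of 1.77-fold lower stayed under the threshold. At 3 h, the ratios were 0.34 and 0.22 with signals of 1842 and 1656 in the MAA channels, and at 8 h they were 0.12 and -0.28. At 1 mM all ratios lay between -0.26 and 0.38. Dazl was not detected with MAA: its 2 probes were above background in 1 of 48 channel readings, a control channel at 24 h, and no fold is given.

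**Figure D2:**
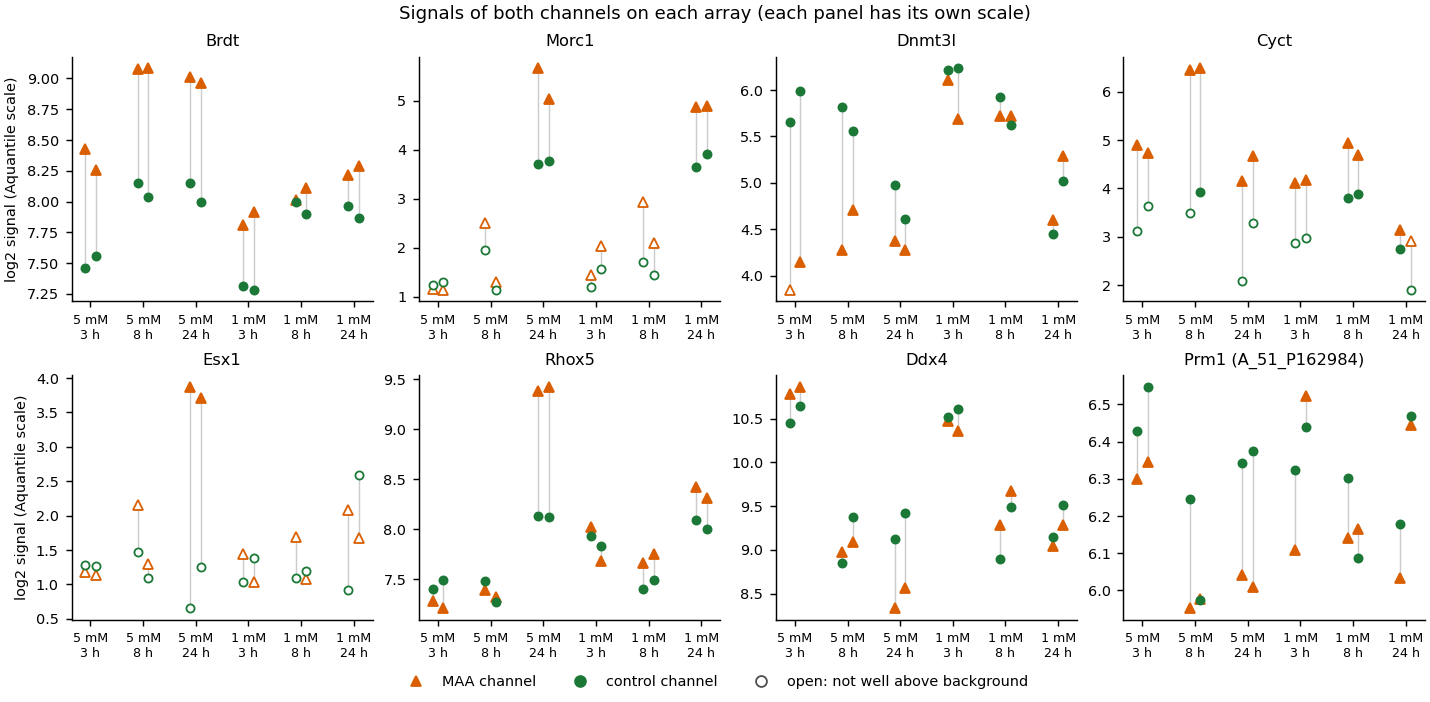
Log2 signal of the MAA channel (triangles) and the control channel (circles) of each array for 8 members, with the arrays grouped by condition on the horizontal axis; open symbols were not well above background, and each panel has its own vertical scale. Morc1 was above background at 24 h in both channels, Esx1 in the MAA channels at 5 mM for 24 h alone, and Ddx4 was lower in both channels after 3 h.

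The control channels also show how the members changed in culture without MAA. The members were picked on MAA/control ratios and not on this comparison. Earlier results of these data were known, however, so the independence of its tests is not established. The 4 control channels of each time were compared after scaling (limma with a dye term, Benjamini-Hochberg adjusted p under 0.05 over all probes). Whether the arrays of the 2 doses share control cultures is not stated, and these p-values measure the spread between arrays, which may be technical. At 24 h against 3 h, 5 of the 13 member probes passed (3 higher, 2 lower), where 51.5% of all probes did (24.4% higher, 27.2% lower). Morc1, among those higher, was below background on every 3 h array. At 8 h against 3 h, 3 passed (1 higher, 2 lower), where 41.9% of all probes did (20.1% higher, 21.8% lower). Both shares of the members were below those of all probes, and 5 of the 13 member probes were above background in all 12 control channels.

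Ddx4 and Dnmt3l fell with time in untreated cells. The untreated Ddx4 signals were between 1114 and 1456 at 3 h, 439 and 846 at 8 h and 602 and 831 at 24 h, so that the 3 h arrays did not overlap the later ones. On the scaled log2 signal the difference from 3 h was -1.40 ± 0.08 at 8 h (SE, adjusted p = 5.4e-07, limma) and -1.25 ± 0.08 at 24 h (adjusted p = 4.0e-07, limma). Dnmt3l fell as well, from 46.6 to 53.5 at 3 h to 25.0 to 43.2 at 24 h, a difference of -1.26 ± 0.17 (adjusted p = 0.000151, limma), while at 8 h the difference of -0.29 ± 0.17 did not pass (adjusted p = 0.225, limma). The lower Dnmt3l ratio with 5 mM MAA at 3 h was thus read against the highest scaled untreated level, and the smaller difference at 24 h against the lowest. The part of the untreated level in those ratios was not tested.

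Brdt rose with time in untreated cells, from 102 to 174 at 3 h to 219.5 to 414 at 8 h and 219 to 357 at 24 h, with no overlap between 3 h and the later arrays. The differences were 0.62 ± 0.08 at 8 h (adjusted p = 0.000177, limma) and 0.59 ± 0.08 at 24 h (adjusted p = 0.00016, limma). Rhox5 rose by 0.42 ± 0.12 at 24 h (adjusted p = 0.012, limma), which did not pass with the replicate number as a block (adjusted p = 0.0573, limma). Morc1 was above background on 0 of 4 control arrays at 3 h, 0 of 4 at 8 h and 4 of 4 at 24 h. Its scaled log2 signal was 1.32 ± 0.17 at 3 h, 1.56 ± 0.35 at 8 h and 3.76 ± 0.12 at 24 h (SD, n = 4 arrays), and 24 h passed against 3 h (adjusted p = 9.1e-07, limma). The 3 h values were all below background, so that p-value does not measure the spread of Morc1 expression at 3 h. Against the lowest signal of any probe called above background on the 3 h arrays, Morc1 at 24 h was not higher, so no lower limit of the fold over 3 h can be given, and over 8 h it was at least 1.34-fold. Prm1, by probe A_51_P162984, was lower at 8 h by a difference of -0.28 ± 0.09 (adjusted p = 0.029, limma), which did not pass with the block (adjusted p = 0.0551, limma) or without any 1 of 5 arrays (adjusted p = 0.0597 to 0.083, limma). No test was past the threshold for Cyct, Prm2, Esx1 or Dazl.

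**Figure D3:**
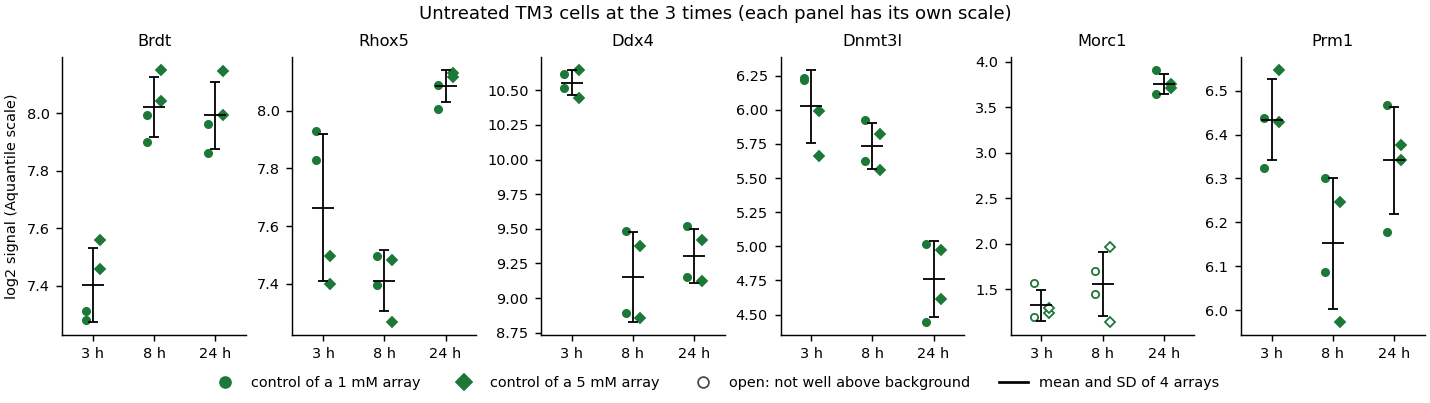
Scaled log2 control signal of 6 members at 3, 8 and 24 h; circles are control channels of 1 mM arrays, diamonds those of 5 mM arrays, open symbols are not well above background, and bars give mean and SD of the 4 arrays. Each panel has its own vertical scale. Ddx4 and Dnmt3l were lower at 24 h than at 3 h, and Brdt and Morc1 higher, Morc1 from signals below background at 3 h.

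Other genes of the germline programme were examined as 6 lists, for spermatogonia and primordial germ cells, the piRNA pathway, meiosis, spermatid regulators and histones, sperm structure and metabolism, and the Rhox cluster. They held 107 genes that are not members, of which 85 had a probe, 109 probes in all. These lists were chosen with earlier results of these data known, and the genes named below were picked by their ratios. The shares of the lists and the p-values of those genes therefore describe these arrays and give no independent support. At 5 mM, 2 of the 109 probes were called at 3 h, 7 at 8 h and 10 at 24 h, shares of 1.83%, 6.42% and 9.17% beside 3.76%, 5.55% and 5.62% of all probes. At 1 mM, 1, 2 and 7 were called, shares of 0.917%, 1.83% and 6.42% beside 1.95%, 2.37% and 4.68%. All of these calls were higher with MAA except 2, both probes of Taf7l at 5 mM for 24 h. The median log2 ratio of the 109 probes at 5 mM was -0.12, 0.05 and 0.13 at 3, 8 and 24 h, and that of all probes -0.10, -0.04 and 0.03. Of their probes, 39.5% to 48.6% had a channel above background on both arrays of a condition, beside 62.4% to 68.0% of all probes.

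**Figure D4:**
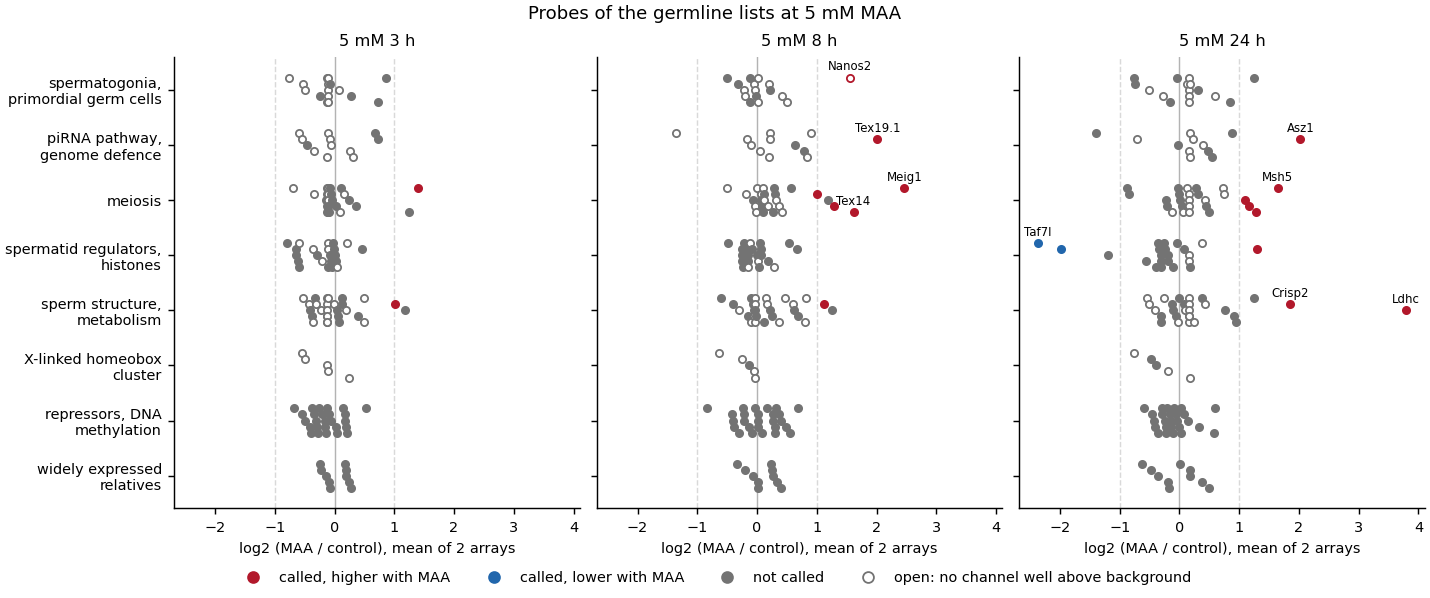
Mean log2 MAA/control ratio of each probe of the germline lists, the repressors and the widely expressed relatives at 5 mM for 3, 8 and 24 h. Red and blue points were called higher and lower, grey points were not called, open points had no channel above background, and dashed lines mark 2-fold. At 24 h the meiosis list had 4 calls, the spermatid list 3 and the sperm list 2, and the repressor list had none.

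In the meiosis list, 4 of 26 probes were called at 5 mM for 8 h and 4 at 24 h, all higher. Meig1, which is needed for spermatid differentiation despite its name, had signals of 189 and 156 in the MAA channels at 8 h against 28.0 and 34.4 in the control channels. Its log2 ratio was 2.47 ± 0.20 there (SE, adjusted p = 0.000105, limma) and 1.39 at 3 h and 1.16 at 24 h. Msh5, a meiotic recombination gene, was higher at 24 h by both of its probes, with log2 ratios of 1.65 ± 0.15 (adjusted p = 0.000176, limma) and 1.29 ± 0.19 (adjusted p = 0.0016, limma). Tex14, which keeps the bridges between germ cells open, was higher at 8 h at both doses, with log2 ratios of 1.61 ± 0.15 at 5 mM (adjusted p = 0.000202, limma) and 1.27 ± 0.15 at 1 mM (adjusted p = 0.0066, limma). The remaining meiosis gene called at 5 mM, named after its values were seen, was Stra8, the retinoic acid target that opens the meiotic programme. Its log2 ratios were 1.28 at 8 h and 1.09 at 24 h. Stra8 lay near background, above it in 3 of 12 control and 6 of 12 MAA channels, with control signals of 1.77 to 19.0 over all arrays.

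Of the 12 piRNA pathway probes, 1 was called at 5 mM for 8 h and 1 at 24 h. Tex19.1, a gene of germ cells and placenta that restrains retrotransposons, read 185 and 177 with MAA and 53.8 and 37.3 in controls at 8 h, a log2 ratio of 2.02 ± 0.35 (SE, adjusted p = 0.0036, limma). Without replicate 2 of that condition the ratio was 1.78 and the call was lost. Asz1, a piRNA pathway gene of male germ cells, read 27.7 and 20.9 with MAA at 24 h. Both of its control channels were below background, and it was at least 2.20-fold higher. The limma test was of its log2 ratio of 2.02 over those controls (adjusted p = 0.00031) and not of that limit.

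The sperm list had 1 call at 5 mM for 3 h, 1 at 8 h and 2 at 24 h, among 28 probes, all higher. Ldhc, the lactate dehydrogenase of sperm, read 36.7 and 36.2 with 5 mM MAA at 24 h. Its control channels read 2.11 and 3.27, below background, so that it was at least 3.36-fold higher. The limma test was of its log2 ratio of 3.79 over those controls (adjusted p = 4.6e-05) and not of that limit. At 1 mM for 24 h Ldhc was called again, at 8.17 and 9.35 with 1 MAA channel above background. Insl6, an insulin-like peptide of spermatocytes and spermatids, was above background in untreated cells as well. It read 13130 and 10310 with MAA at 5 mM for 8 h and 5443 and 5309 in controls, a log2 ratio of 1.11 ± 0.12 (SE, adjusted p = 0.00042, limma), and without replicate 1 of that condition the ratio of 0.96 was under the fold threshold. H2bc1, a testis histone H2B, was higher at 24 h by 1.30 ± 0.06 at 5 mM (adjusted p = 1.85e-05, limma) and by 0.81 ± 0.06 at 1 mM (adjusted p = 0.000642, limma). H2B genes that are not testis-specific had like ratios at 24 h, H2bc12 (probe A_51_P182358) 1.27 at 5 mM and 0.77 at 1 mM and H2bc14 1.23 and 0.73, both named after their values were seen.

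Taf7l, an X-linked paralog of the general transcription factor Taf7 that acts in spermatids, moved the other way. By probe A_52_P246973 it read 48.5 and 33.3 in the control channels at 5 mM for 24 h. With MAA it read 6.12 and 9.85, below background, at least 3.02-fold lower. A second probe was at least 1.56-fold lower. The limma tests of both probes were of their log2 ratios and not of these limits. They gave adjusted p = 0.0011 for the first, at a log2 ratio of -2.37, and 0.00055 for the second. At 1 mM for 24 h the log2 ratios of those probes were 1.06 and 0.83, neither of them called. With normexp and loess, Taf7l at -0.39, Ldhc at 0.60, Asz1 at 0.30 and Tex14 at 0.76 were under the fold threshold. The values of Taf7l (probe A_52_P246973), Ldhc and Asz1 were also smaller than the lower limits given for them. The calls outside the naming rule, named after their values were seen, were Nanos2 at 5 mM for 8 h with no channel above background, Crisp2 at 5 mM for 24 h with 1 MAA channel above background, Akap3 at 1 mM for 8 h, both Id4 probes at 1 mM for 24 h (log2 ratios of 1.10 and 0.90), and at 1 mM for 3 h a Taf7l probe below background.

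None of the genes listed here as known for holding germline promoters silent was called, and repressors outside the list were not examined. The list held 18 genes on 26 probes, among them Dnmt1, Dnmt3a, Dnmt3b, Uhrf1, Max, Mga, E2f6, Pcgf6, L3mbtl2, Setdb1, Ehmt1, Ehmt2, Hdac1 and Hdac2. All 26 were above background, and 0 were called in any of the 6 conditions by limma. At an unadjusted p under 0.05 there were 15, 14 and 13 at 5 mM for 3, 8 and 24 h and 3, 6 and 10 at 1 mM. By limma's adjusted p under 0.05, with no fold threshold, 11, 12 and 10 of the 26 passed at 5 mM, where 24%, 30.4% and 30.4% of all probes did. Their mean log2 ratios at 5 mM were between -0.83 and 0.68. At 5 mM for 24 h Hdac1 read 0.60 on both arrays, and the 3 Dnmt3a probes, for the partner of Dnmt3l, were between -0.21 and -0.64. Of 10 probes for widely expressed relatives of the members (Brd2, Brd3, Cycs, Morc2a and Morc4), 0 were called by limma at 5 mM, with 3, 3 and 6 at an unadjusted p under 0.05, and both Morc4 probes were called at 1 mM for 24 h with log2 ratios of 0.81 and 0.84. The Brd2 and Brd3 probes at 5 mM for 24 h had log2 ratios between -0.72 and -0.34 on single arrays, while the mean for Brdt was 0.92.

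The genes nearest to a member in ratio profile were found for Esx1, Cyct and Dnmt3l, the members with the widest range of the 6 mean log2 ratios. Nearness was the root mean square difference over the 6 conditions among 17110 probes with a symbol and a detected signal. For Esx1 they were Wif1 (0.09), Akr1c18 (0.17) and Padi2 (0.25), with log2 ratios of 2.90, 2.81 and 2.73 at 5 mM for 24 h beside 2.84 for Esx1. For Cyct they were Arhgap30 (0.24), Phlda2 (0.25) and Fa2h (0.30), at 2.83, 2.32 and 2.69 at 5 mM for 8 h beside 2.75. For Dnmt3l they were E130311K13Rik (0.14), Tlr3 (0.19) and Ccn4 (0.19), at -1.62, -1.74 and -1.55 at 5 mM for 3 h beside -1.83. Esx1 was above background only in the MAA channels at 5 mM for 24 h. Its range and its likeness to other genes therefore rest on a control at background. Only a lower limit of 1.74-fold can be given there from the processed signals. With normexp and loess its log2 ratio there was 0.27, a smaller difference than that limit. All profiles come from the same arrays and share their control RNA.

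**Figure D5:**
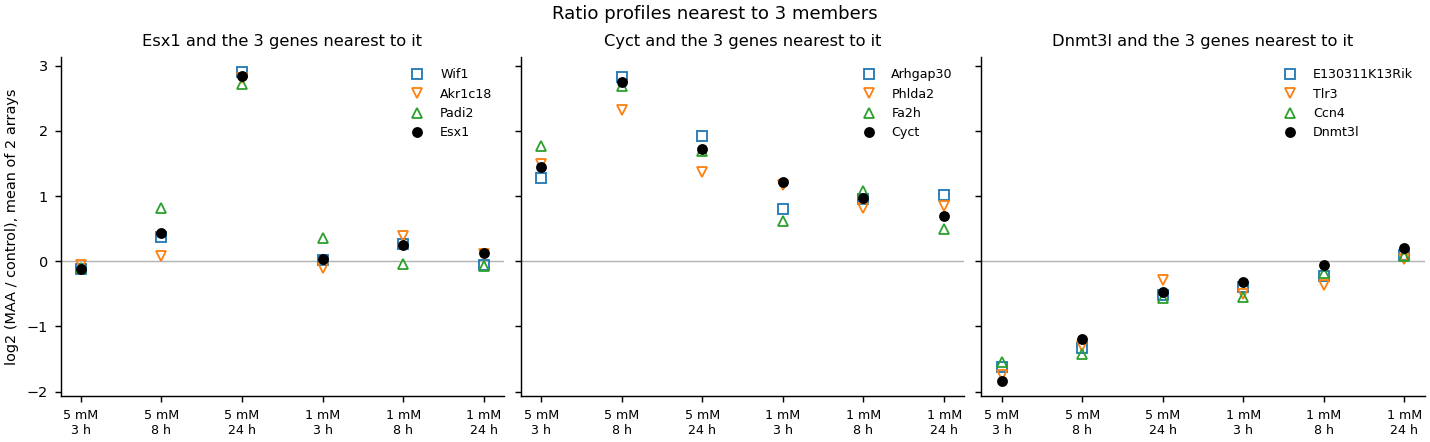
Mean log2 MAA/control ratio (vertical axis) in the 6 conditions (horizontal axis) for Esx1, Cyct and Dnmt3l (black circles) and the 3 genes nearest to each (open symbols), 2 arrays a point. Esx1 and its neighbours were highest at 5 mM for 24 h, Cyct and its neighbours peaked at 5 mM for 8 h, and Dnmt3l and its neighbours were lowest at 5 mM for 3 h.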

How the data were processed

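Spots were taken from the scanner output that the authors deposited, made with Agilent Feature Extraction 9.5.3.1: a processed intensity per channel, which the software had background-subtracted and dye-normalized, and a log10 ratio of red over green, used as an alternative. No build is given in the sources used here. Control spots and outlier spots were left out, spots of 1 probe were averaged, and log2(MAA/control) was formed with each dye-swapped array turned the same way, without centring. limma 3.58.1 in R 4.3.3 was fitted to all 41174 probes and 12 arrays with 1 coefficient a condition, and its script was checked on simulated data. Calls required p under 0.005 and more than 2-fold (5 mM) or 1.5-fold (1 mM). Control channels were scaled with Aquantile and tested for time with a dye term (Benjamini-Hochberg adjusted p under 0.05).

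Probes were named through RefSeq accessions (GRCm38.p6 table), which gave 22082 probes a symbol. The members and all lists were chosen with earlier results of these data known. Of each germline list, the 3 genes with the largest absolute log2 ratio were named among probes called at a 5 mM time with a channel above background on both arrays, and for the 3 detected members of widest range the 3 nearest genes. Replicate number is dye orientation: deviations of the same number correlated between conditions at r = 0.075 to 0.515 (median 0.376, 15 pairs). Alternatives were normexp (offset 50) with loess, the deposited log10 ratios, median centring, a background filter and outlier spots kept. Further ones were replicate and slide blocks, adjusted p, quantile normalization and leaving out each array. The number of arrays limits the precision. Whether arrays share control cultures is not stated, so p-values measure the spread between arrays, which may be technical. A gene of the list of relatives is not reported here.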

Additional observations from a re-analysis of the deposited data

Results flagged for a closer look

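In untreated cells, 3 of the 39 sets of 4 control signals tested held 1 array far from the others, where chance flags about 1 in 20. The gap to the nearest array, as a share of the whole range, was 0.83 for Prm1 probe A_52_P533287 at 3 h, 0.901 for Prm2 at 8 h and 0.951 for Dazl probe A_52_P271166 at 3 h. The Prm2 value is the spot of replicate 2 at 5 mM for 8 h that was bright in both channels, and both other probes were below background.

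Some member ratios lay on opposite sides of 0 on both arrays of 2 conditions, and these differences were not tested. For Rhox5, the mean log2 ratio at 5 mM for 3 h minus that at 24 h was -1.48. For Ddx4, it was 1.10 for 5 mM at 3 h minus 24 h, -0.44 for 1 mM at 3 h minus 8 h, 0.46 for 1 mM at 8 h minus 24 h, and 0.43 for 5 mM minus 1 mM at 3 h. For Dnmt3l, it was -0.53 for 1 mM at 3 h minus 24 h and -0.68 for 5 mM minus 1 mM at 24 h.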

How the results depend on the processing

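Normexp with loess starts from the mean and background intensities and adds an offset of 50 to every signal. The main processing called 1547, 2284 and 2315 probes at 5 mM for 3, 8 and 24 h. At 1 mM it called 803, 977 and 1925. Normexp with loess called fewer: 534, 1030 and 881 at 5 mM and 116, 398 and 500 at 1 mM. Germline list probes called were then 1, 3, 2, 0, 0 and 4, and member probes 0, 1, 1, 0, 0 and 0. The mean log2 ratio of Cyct at 5 mM for 8 h became 1.28, of Esx1 at 24 h 0.27, of Morc1 at 24 h 0.63 and of Dnmt3l at 3 h -0.49, while that of Rhox5 at 24 h was 1.19. Asz1, Tex14, Taf7l and Ldhc lost their calls there at 0.30, 0.76, -0.39 and 0.60. The cause was not tested, nor was the part of the offset in it. At 1 mM for 3 h, germline calls were 0 with the deposited ratios, with median centring, above background and by adjusted p, and at 8 h 1 above background. Member calls at 1 mM for 8 h were 0 with the deposited ratios, where the log2 ratio of Cyct was 0.96 in place of 0.98 and that of Morc1 0.93 in place of 0.94, and the cause was not tested.

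Leaving out each array gave 2 to 4 germline calls at 5 mM for 3 h, 3 to 8 at 8 h and 0 to 2 at 1 mM for 3 h. Member calls were 1 to 2 at 5 mM for 3 h (1 without 5 mM 3 h replicate 1), and at 1 mM 0 to 1 at 3 h (0 without its replicate 2), 0 to 2 at 8 h (0 without its replicate 1) and 0 to 1 at 24 h (0 without its replicate 1). Prm2 in untreated cells at 8 h, 0.19 over 3 h, ran from -0.85 without 5 mM 8 h replicate 2 to 0.65, and was -0.28 without 1 mM 3 h replicate 2. Rhox5 at 8 h passed without 5 mM 3 h replicate 1 (-0.36, adjusted p = 0.0165, limma). With the replicate number as a block, Prm1 at 8 h (adjusted p = 0.0551, limma) and Rhox5 at 24 h (adjusted p = 0.0573, limma) lost the threshold in untreated cells (Prm1 also without any 1 of 5 arrays), leaving 2 and 4 member probes and 14990 and 19110 of all probes, in place of 17252 and 21218. The block moved no member count of MAA calls, and probe counts were 1543, 2302, 2342, 858, 1064 and 2012. Of 1404 alternative values for member ratios, 1339 stayed within the SD of the pair, 65 moved beyond it and 0 reversed a called direction.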
